A study of Arabidopsis thaliana with 12 samples.

Results

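The 4 genes described here are UGT78D1 (AT1G30530), UGT78D2 (AT5G17050), AT2G22590 and AT2G16890, out of 13356 named genes on the array. They were chosen by their higher measured intensity at 4 °C than at 23 °C in these arrays, and each was read by 1 probe set. Roots of Arabidopsis plants 4 weeks old were profiled on 12 Affymetrix ATH1 arrays, a 3′ expression array on which each gene is read by a set of short probes. The groups were ozs3 at 4 °C, ozs3 at 23 °C, Col-0 at 4 °C and Col-0 at 23 °C, with 3 biological replicates each. The mutant ozs3 (overly zinc sensitive 3) was set against its wild type Col-0. Cold lasted 24 h, and every group grew in hydroponic culture with 8 h of light per day. The labels do not name the gene altered in ozs3, so no transcript could be used to check its genotype.

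UDP-glycosyltransferases move a sugar from a UDP-sugar onto small molecules such as flavonoids, hormones and defence compounds, which changes their solubility, stability and storage. In Arabidopsis, UGT78D1 attaches rhamnose and UGT78D2 attaches glucose to flavonols at the same hydroxyl group, and UGT78D2 also acts on anthocyanidins. Flavonoid synthesis in this plant is known to respond to light, nutrient supply and cold. AT2G22590 and AT2G16890 were included as further glycosyltransferases. The gene tables give them a locus identifier and no name, so no substrate is stated for them here.

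Because the 4 genes were picked for their behaviour in the cold, their cold responses are given as a description, with no test. The differences between genotypes were tested. Levels are log2 intensities, differences are log2 values ± the moderated standard error of limma (SE), and a probe set counted as called at an adjusted p under 0.05. A level at or below 5 was treated as dim, where an array can understate a difference.

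UGT78D2, AT2G22590 and AT2G16890 were 8.78- to 16.6-fold higher at 4 °C in ozs3 roots and 8.18- to 24.0-fold higher in Col-0 roots, and none of the 3 was called between genotypes. UGT78D1 was 1.10-fold higher at 4 °C in ozs3 and 1.54-fold higher in Col-0, and at 4 °C it was 1.54-fold lower in ozs3. Its signal was dim, with 3 of its 4 group means under the limit of 5. In whole roots, fewer cells of a type and less RNA per cell cannot be told apart.

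UGT78D2, the flavonoid glucosyltransferase gene, read 10.21, 10.16 and 9.996 in the ozs3 roots at 4 °C, against 7.09, 6.69 and 7.18 in the ozs3 roots at 23 °C. In Col-0 it read 10.25, 9.94 and 10.03 at 4 °C, against 7.07, 7.12 and 6.94 at 23 °C. All cold arrays lay above all control arrays in both genotypes, by a gap of at least 2.82. The mean difference was 3.13 ± 0.12 in ozs3 (8.78-fold) and 3.03 ± 0.12 in Col-0 (8.18-fold). Temperature accounted for 99.2% of the variation of UGT78D2 over the 12 arrays, and spread within groups for 0.778%.

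AT2G22590 read 9.72, 9.46 and 8.78 in ozs3 at 4 °C, against 5.19, 5.10 and 5.52 in ozs3 at 23 °C. In Col-0 it read 9.72, 9.26 and 9.37 at 4 °C, against 5.10, 4.63 and 4.87 at 23 °C. The groups were far apart in both genotypes, and the lowest cold value of the gene was ozs3 replicate 3. The mean difference was 4.05 ± 0.21 in ozs3 (16.6-fold) and 4.58 ± 0.21 in Col-0 (24.0-fold). The Col-0 control mean of 4.87 ± 0.23 (SD, n = 3) was dim, so the rise in Col-0 may be understated, which was not tested.

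AT2G16890 read 10.44, 10.83 and 10.70 in ozs3 at 4 °C, against 6.28, 6.02 and 7.51 in ozs3 at 23 °C. In Col-0 it read 10.18, 10.58 and 10.71 at 4 °C, against 6.50, 6.28 and 6.73 at 23 °C. The mean difference was 4.05 ± 0.29 in ozs3 (16.6-fold) and 3.98 ± 0.29 in Col-0 (15.8-fold). Its ozs3 control group was the most scattered of all groups of the 4 genes, at 6.60 ± 0.80 (SD, n = 3), and replicate 3 stood 1.37 above the mean of the other two. In that same array COR15A, a cold-protective gene used here as a marker of the cold response, read 7.60, against 5.24 and 5.23 in the other arrays of the group. AT2G22590 stood 0.37 above the other two there. Without that array the rise of AT2G16890 in ozs3 was 4.51.

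UGT78D1, the flavonol rhamnosyltransferase gene, read 4.44, 4.47 and 4.25 in ozs3 at 4 °C, against 4.31, 4.16 and 4.25 in ozs3 at 23 °C. In Col-0 it read 4.96, 5.0 and 5.07 at 4 °C, against 4.27, 4.54 and 4.35 at 23 °C. The cold and control arrays overlapped in ozs3 and were separate in Col-0. The mean difference was 0.14 ± 0.09 in ozs3 (1.10-fold) and 0.62 ± 0.09 in Col-0 (1.54-fold). Temperature and genotype took nearly equal shares of its variation, 38.4% and 38.9%, with 15.2% for their interaction and 7.41% within groups.

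All cold arrays lay above all control arrays for 3 of the 4 genes in ozs3, where 29.9% of all probe sets did so, and for 4 of 4 in Col-0, where 24.6% did. These counts follow from the choice of the genes. Of 22746 probe sets ordered by their difference in the cold, AT2G16890 stood at place 12 in ozs3 and 14 in Col-0, AT2G22590 at 13 and 7, and UGT78D2 at 53 and 50. UGT78D1 stood at 8619 in ozs3 and 2103 in Col-0.

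**Figure D1:**
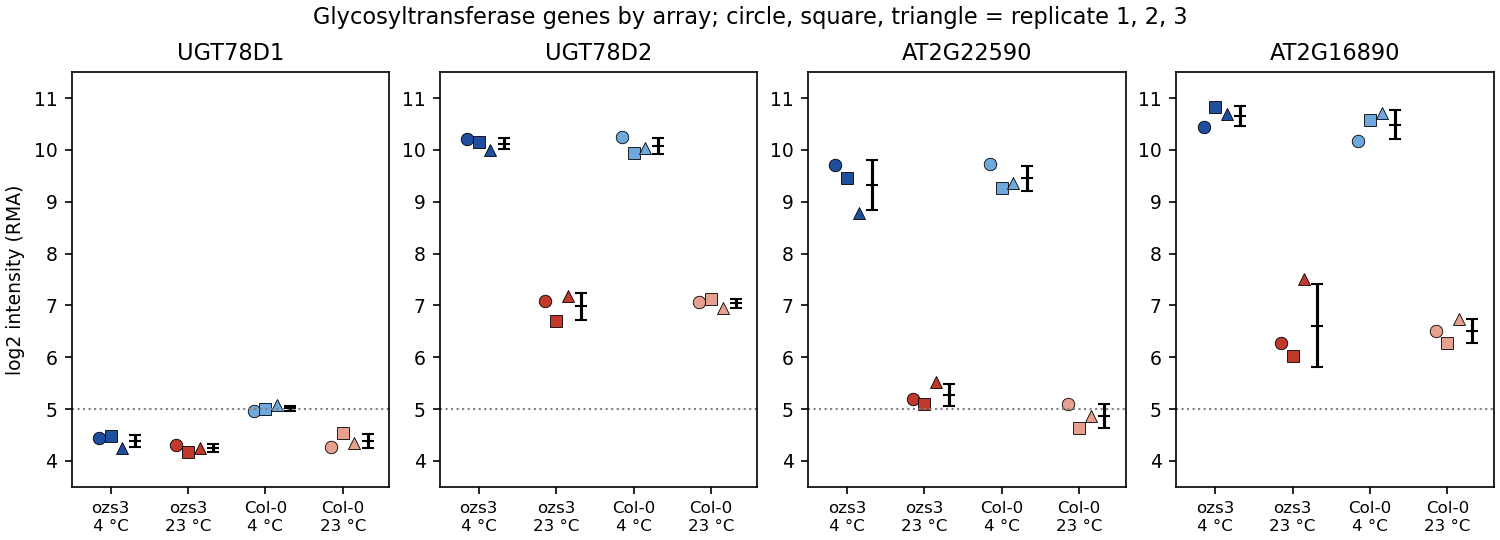
Log2 intensity of each gene (vertical axis) on every array, by group (horizontal axis); symbols give replicates 1 to 3, black bars the mean ± SD of 3 arrays, and the dotted line the limit of 5 for dim signals. UGT78D2, AT2G22590 and AT2G16890 are high in both cold groups, while UGT78D1 stays between 4.16 and 5.07 and is highest in Col-0 at 4 °C.

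The order of the group means differed between the genes. For UGT78D2 (10.12 ± 0.11, SD, n = 3) and AT2G16890 (10.66 ± 0.20) ozs3 at 4 °C came first and overlapped with Col-0 at 4 °C (10.07 ± 0.16 and 10.49 ± 0.28), and the 2 control groups lay below and overlapped with each other. For AT2G22590, ozs3 at 4 °C (9.32 ± 0.48) and Col-0 at 4 °C (9.45 ± 0.24) overlapped, and below them ozs3 at 23 °C (5.27 ± 0.22) stood just above Col-0 at 23 °C (4.87 ± 0.23). The lowest ozs3 control array and the highest Col-0 control array of AT2G22590 both read 5.10, a separation by 0.0009, where 12.6% of all probe sets were higher in all ozs3 control arrays. For UGT78D1, ozs3 at 4 °C (4.39 ± 0.12), ozs3 at 23 °C (4.24 ± 0.08) and Col-0 at 23 °C (4.39 ± 0.14) overlapped, and Col-0 at 4 °C (5.01 ± 0.05) stood above all of them.

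Whether ozs3 roots differed from wild-type roots in the cold was tested at 4 °C. UGT78D1 was lower in ozs3, with a difference of -0.63 ± 0.09 (95% interval -0.82 to -0.43, limma adjusted p = 0.00068), and all 3 ozs3 arrays lay below all 3 Col-0 arrays, as 15.3% of all probe sets did. It was 1 of 4 genes called, where 14.6% of all probe sets were called at 4 °C and 8.20% were called lower in ozs3. The comparison shares its cold arrays, of Col-0 and of ozs3, with the contrasts on which the genes were picked. UGT78D1 read highest in cold Col-0, so a choice by its rise there favours a lower value in ozs3. Its p at 4 °C is therefore not independent of the choice, and leaving out arrays does not remove this. The call held without any one of the 12 arrays (differences between -0.67 and -0.56, adjusted p between 0.000526 and 0.00409).

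The difference of UGT78D1 was set against other dim signals, since its mean over all arrays was 4.51. Among 6429 dim probe sets, the median difference between ozs3 and Col-0 at 4 °C was 0.06, the central range from the 5th to the 95th percentile was -0.15 to 0.28, and 0.607% were called lower in ozs3. The median dim probe set lay in the opposite direction from UGT78D1, which was below the 5th percentile. UGT78D1 was picked for a rise in the cold, which was larger in Col-0 than in ozs3, and the dim probe sets were not picked. Its place among them is therefore a description and not a test. In ozs3 the median difference of the dim probe sets in the cold was 0.11, close to the 0.14 of UGT78D1.

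UGT78D2 and the 2 genes known by locus were not called at 4 °C. UGT78D2 differed by 0.05 ± 0.12 between ozs3 and Col-0 (95% interval -0.22 to 0.31, adjusted p = 0.857), AT2G22590 by -0.13 ± 0.21 (-0.58 to 0.32, adjusted p = 0.746) and AT2G16890 by 0.17 ± 0.29 (-0.46 to 0.80, adjusted p = 0.763). The interval was narrowest for UGT78D2 and widest for AT2G16890. None of these 3 genes had an unadjusted p under 0.05.

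At 23 °C none of the 4 genes was called by limma, where 6.34% of all probe sets were, and none had an unadjusted p under 0.05. UGT78D1 differed by -0.14 ± 0.09 between ozs3 and Col-0 (95% interval -0.34 to 0.05, adjusted p = 0.428) and UGT78D2 by -0.06 ± 0.12 (-0.32 to 0.21, adjusted p = 0.86). AT2G22590 differed by 0.40 ± 0.21 (-0.05 to 0.85, adjusted p = 0.308) and AT2G16890 by 0.10 ± 0.29 (-0.53 to 0.73, adjusted p = 0.898). Without ozs3 replicate 3 at 23 °C the difference of AT2G16890 was -0.36 (adjusted p = 0.286), so its sign rested on that array.

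The interaction compared the cold response of ozs3 with that of Col-0. UGT78D1 had a smaller response in ozs3 by -0.48 ± 0.13 (95% interval -0.76 to -0.20, limma adjusted p = 0.0333), as 1 of 4 genes, where 10.1% of all probe sets were called and 5.82% had a response called lower in ozs3. Since the cold responses had been used to pick the genes, this value is not independent of the choice. The call ended without any one of 8 arrays, with adjusted p between 0.0531 and 0.0832: Col-0 replicates 1 and 3 at 23 °C, all 3 Col-0 replicates at 4 °C, ozs3 replicates 1 and 3 at 23 °C, and ozs3 replicate 3 at 4 °C. The difference itself stayed between -0.56 and -0.41 over the 12 arrays left out in turn.

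AT2G22590 had an interaction of -0.53 ± 0.30, larger in size than that of UGT78D1 but with a wider interval of -1.17 to 0.10 (adjusted p = 0.281). Between same-numbered arrays its cold difference was 4.53, 4.36 and 3.26 in ozs3, against 4.63, 4.62 and 4.50 in Col-0. The low value of 3.26 came from ozs3 replicate 3, whose control array was the highest and whose cold array was the lowest of its group. UGT78D2 (0.10 ± 0.18, 95% interval -0.28 to 0.48, adjusted p = 0.756) and AT2G16890 (0.07 ± 0.41, -0.82 to 0.96, adjusted p = 0.938) were not called.

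**Figure D2:**
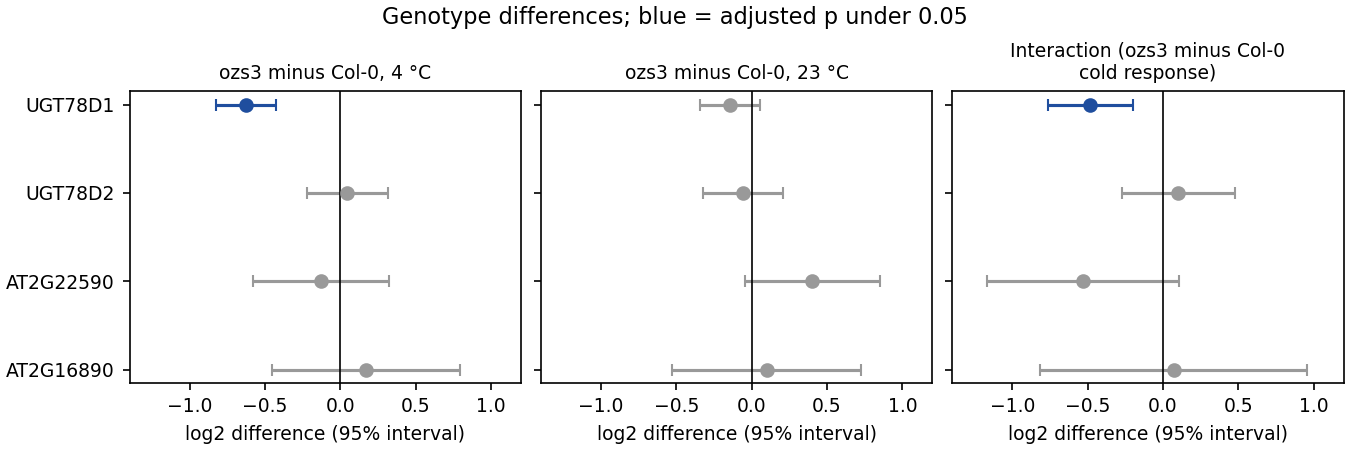
Log2 differences with 95% intervals (horizontal axis) of the 4 genes for ozs3 minus Col-0 at 4 °C, at 23 °C, and for the interaction; blue points have a limma adjusted p under 0.05. UGT78D1 lies left of 0 at 4 °C (-0.63) and in the interaction (-0.48), and the intervals of the other genes include 0 in every panel.

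The 4 profiles were compared over the 12 arrays, as a description that mostly reflects the 2 temperatures. UGT78D2 followed AT2G22590 at r = 0.99 and AT2G16890 at r = 0.98, and AT2G22590 followed AT2G16890 at r = 0.98. UGT78D1 correlated with these genes at r between 0.59 and 0.62. After the group means were removed, which leaves 8 degrees of freedom, deviations of UGT78D2 and AT2G22590 had the highest r of all pairs, 0.62. For UGT78D1 and UGT78D2 r was 0.44, and for UGT78D2 and AT2G16890 it was 0.30. The other pairs lay between 0.05 and 0.18, lowest for UGT78D1 and AT2G16890. These values were not tested.

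The genes most like each of the 4 were ranked by the root mean square difference between mean-centred profiles over the 12 arrays, among 13355 named genes. Nearest to UGT78D2 was HYH, the homolog of the light-response regulator HY5, at 0.21 log2 units (r = 0.99). It was followed by AT1G48100, AT1G51090, AT4G18650 and AT2G34930, at 0.23 to 0.26. HYH read 8.99, 9.37 and 8.75 in ozs3 at 4 °C, against 6.52, 5.59 and 6.53 in ozs3 at 23 °C. In Col-0 it read 9.43, 9.17 and 9.07 at 4 °C, against 6.26, 6.22 and 6.29 at 23 °C. Its cold response was 2.82 ± 0.22 in ozs3 and 2.97 ± 0.22 in Col-0, set beside 3.13 and 3.03 for UGT78D2.

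AT2G16890 was most like AT1G16850 (0.20), AT4G30650 (0.25), AT4G01870 (0.31), AT5G15950 (0.32) and AT1G11210 (0.32). For AT2G22590 the distances were larger: AT3G17130 came first at 0.40, then AT5G62360 (0.43), AT2G16890 itself (0.46), the cold-regulated and clock-linked COR27 (0.47) and AT4G30650 (0.48). UGT78D1 was nearest to TAAC, a thylakoid ATP/ADP carrier gene, at 0.09 (r = 0.95). TAAC differed in the cold by 0.02 in ozs3 and by 0.62 in Col-0, set beside 0.14 and 0.62 for UGT78D1. AT1G19970, AT5G16220, AT1G11330 and AT2G04845 followed at 0.10 to 0.13. Above r = 0.95 lay 484 genes for UGT78D2, 417 for AT2G22590, 411 for AT2G16890 and 2 for UGT78D1.

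A small part of the rest of the flavonoid pathway was read, from lists of 63 enzymes, decorating and transport proteins and regulators, of which 10 had a named probe set. These were 3 of 18 pathway enzymes, 6 of 19 decorating and transport genes and 1 of 26 regulators. In ozs3 8 of the 10 rose in the cold and none fell, with a median difference of 0.58, where 24.9% of all probe sets were called higher and the median was 0.05. In Col-0 5 of 10 rose and none fell, with a median of 0.47, where 20.4% of all probe sets were called higher and the median was -0.0033. With dim probe sets left out, only 5 of the 10 genes remained, and the count was 5 of 5 in ozs3 and 4 of 5 in Col-0. Of all 10, the count in ozs3 was 6 with a repeated quantile normalization and 10 with 1 common median for all arrays. In Col-0 it was 5 in both settings. None of the 10 was called by limma between genotypes at either temperature or in the interaction; under the alternatives, CHIL at 4 °C and in the interaction and AT5MAT in the interaction were called.

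The 5 genes that rose in both genotypes were HYH, AT1G06000, CHIL, UGT84A1 and UF3GT. AT1G06000, placed on the list of decorating enzymes and known in the gene tables by its locus alone, rose by 1.98 ± 0.15 in ozs3 (adjusted p = 1.61e-07) and by 2.37 ± 0.15 in Col-0 (adjusted p = 5.51e-08). UGT84A1, which glycosylates hydroxycinnamates, rose by 0.89 ± 0.24 in ozs3 and 1.31 ± 0.24 in Col-0, where replicate 1 at 4 °C read 6.46 against 5.17 and 5.34. UF3GT, which adds a sugar to anthocyanins, rose by 0.76 ± 0.13 and 0.81 ± 0.13. BAN, of proanthocyanidin synthesis, AT4G14090 and the anthocyanin malonyltransferase gene AT5MAT rose in ozs3 by between 0.31 and 0.39 and were not called in Col-0 (-0.20 to 0.12). BAN and AT5MAT were dim in every group. Among dim probe sets in ozs3, 16.9% were called higher in the cold, and the 95th percentile of their differences was 0.40. The interaction of BAN, AT4G14090 and AT5MAT did not pass (limma adjusted p between 0.0671 and 0.45). That of AT5MAT passed with 1 common median, without Col-0 replicate 3 at 23 °C and without ozs3 replicate 2 at 4 °C. In ozs3 the call of BAN ended in 8 of 19 alternatives and that of AT5MAT in 6 of 19, both including a repeated quantile normalization. The anthocyanin enzyme gene DFR was dim throughout and not called (0.14 ± 0.10 in ozs3 and -0.07 ± 0.10 in Col-0).

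CHIL, a chalcone isomerase-like protein gene that promotes flavonoid synthesis, read 8.70, 8.31 and 7.38 in ozs3 at 4 °C, against 6.94, 6.35 and 6.0 in ozs3 at 23 °C. In Col-0 it read 9.49, 8.92 and 8.11 at 4 °C, against 6.66, 6.46 and 6.06 at 23 °C. Within each group the arrays of CHIL were spread widely, and same-numbered arrays were high or low together. Its difference between ozs3 and Col-0 at 4 °C was -0.71 ± 0.36 (adjusted p = 0.218), and with the replicate number as a block it was called (adjusted p = 0.00276), as was its interaction (adjusted p = 0.0196, against 0.382 without the block).

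**Figure D3:**
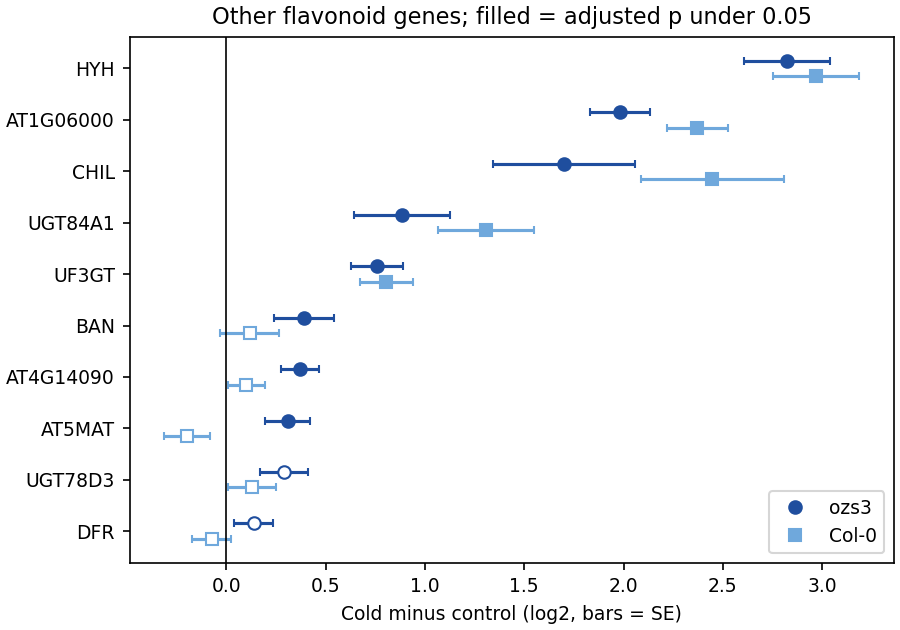
Cold minus control difference in log2 units (horizontal axis, bars give the SE) of the 10 named flavonoid genes other than the 4 described, in ozs3 (dark circles) and Col-0 (light squares); filled symbols were called by limma. HYH, AT1G06000, CHIL, UGT84A1 and UF3GT are filled in both genotypes, and UGT78D3 and DFR are open in both.

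Close to UGT78D2 on chromosome 5 lie UGT78D3, of the same family, and AT5G17040, known here by its locus alone, so its family is not stated. UGT78D3 differed in the cold by 0.29 ± 0.12 in ozs3 (adjusted p = 0.0576) and by 0.13 ± 0.12 in Col-0 (adjusted p = 0.439). AT5G17040, directly beside UGT78D2, differed by 0.39 ± 0.16 in ozs3 (adjusted p = 0.0517) and by 0.20 ± 0.16 in Col-0 (adjusted p = 0.356). Neither was called, but in ozs3 both were called with the replicate block (adjusted p = 0.0335 for UGT78D3 and 0.00921 for AT5G17040) and with 1 common median, and each in further settings. Next but one to AT2G16890 on chromosome 2, AT2G16900 rose by 1.29 ± 0.11 in ozs3 (adjusted p = 3.58e-07) and by 0.59 ± 0.11 in Col-0 (adjusted p = 0.000479). Its response was larger in ozs3 by 0.70 ± 0.15 (adjusted p = 0.0124), whereas AT2G16890 was not called in that test. Of the 9 named neighbours within 2 places of the 4 genes, 3 others were called in the cold in 1 of the genotypes. Such calls were common on this array, with 9987 of 22746 probe sets reaching one in Col-0 and 11624 in ozs3. Whether the neighbours differed from the rest of the array was not tested. AT1G30540, directly beside UGT78D1, was lower at 4 °C in Col-0 (-0.40 ± 0.08, adjusted p = 0.000784) and was not called in ozs3 (0.04 ± 0.08, adjusted p = 0.685). Its interaction of 0.44 ± 0.11 (adjusted p = 0.024) had the opposite sign to that of UGT78D1, and it was no longer called when replicate 2 of ozs3 or replicate 3 of Col-0 (both 23 °C) or replicate 1 of cold Col-0 was left out. The calls of AT2G22610 in ozs3 (-0.46 ± 0.17) and AT5G17070 in Col-0 (0.28 ± 0.10) also ended when single arrays were left out.

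The family comparison held 54 UDP-glycosyltransferase genes, the 4 included and the rest taken by a name or synonym in the gene table. Among them AT2G16890, AT2G22590 and UGT78D2 held the first 3 places by cold response in both genotypes. UGT78D1 held place 29 in ozs3 and 15 in Col-0. The 4 genes were chosen for their rise in the cold, so these places are a description and not a test. Of the other 50, 21 rose and 6 fell in ozs3 (median 0.15), beside 24.9% of the whole array that was called higher and 26.2% called lower. In Col-0 17 rose and 5 fell (median 0.09), beside 20.4% called higher and 23.5% called lower. Genes without such a name or synonym, such as AT1G06000, AT4G14090 and AT5G17040, are not among the 50. AT1G06000 rose by more than any of the 50 (1.98 in ozs3 and 2.37 in Col-0). The largest rises among the 50 in ozs3 were those of UGT73B4 (1.96 ± 0.20), UGT73D1 (1.82 ± 0.19) and UGT74D1 (1.59 ± 0.12), and in Col-0 those of UGT74D1 (1.83 ± 0.12), UGT72E3 (1.35 ± 0.11) and UGT84A1. The place of UGT84A1 rested on Col-0 replicate 1 at 4 °C. Its lowest rise over the alternatives was 0.91, below the 1.25 of UGT73D1 in Col-0. Of the 50, UGT71C1 had the largest fall, by 1.98 ± 0.10 on the log2 scale in ozs3 and by 1.78 ± 0.10 in Col-0. In the interaction 2 of the 50 were called higher in ozs3 and 3 lower, beside 4.3% and 5.82% of all probe sets. The higher ones were UGT73B4 (1.21, adjusted p = 0.0167), with a larger rise in ozs3, and UGT87A2 (1.04, adjusted p = 0.0213). The lower ones were UGT85A2 (-0.47), UGT76D1 (-0.46) and SGT (-0.42). The call of UGT73B4 held in all alternatives, and those of the others ended in some.

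**Figure D4:**
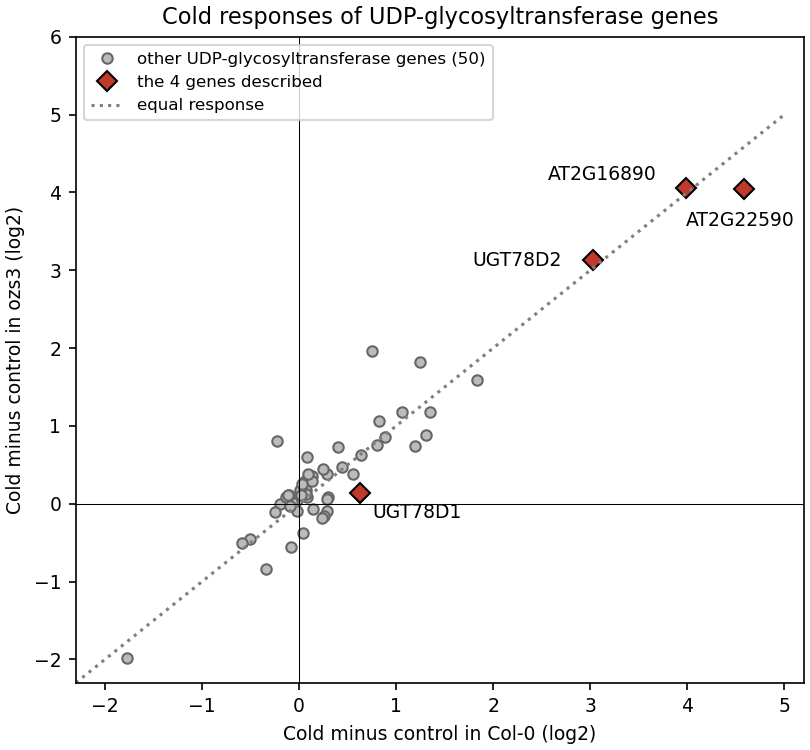
Cold minus control difference in ozs3 (vertical axis, log2) against that in Col-0 (horizontal axis, log2) for the 4 genes (diamonds) and 50 other UDP-glycosyltransferase genes (circles); the dotted line marks equal responses. UGT78D2, AT2G22590 and AT2G16890 lie apart at the upper right, at 3.03 or more on both axes, and UGT78D1 lies below the line among the other genes. The 4 genes were chosen for their rise in the cold.

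As a check of the tissue, 4 of 13 root markers and 3 of 8 shoot markers had a named probe set. The root markers averaged between 6.32 and 13.58 over the groups. Of the shoot markers, SBPASE and PRK were dim in every group and RCA averaged between 6.66 and 7.28. The summed linear intensity of the shoot markers ranged over 147 to 168 in ozs3 at 4 °C, 153 to 173 in ozs3 at 23 °C, 126 to 155 in Col-0 at 4 °C and 164 to 262 in Col-0 at 23 °C. At 4 °C these ranges overlapped between the genotypes. The part of shoot tissue in the UGT78D1 difference was not tested. Of the root markers 1 of 4 was called at 4 °C: XTH26, of root hairs, was lower in ozs3 at 4 °C (-1.28 ± 0.26, adjusted p = 0.0052), and its part in the UGT78D1 difference was not tested. The other root hair genes, EXPA7 (0.55 ± 0.18, adjusted p = 0.054) and EXPA18 (-0.04 ± 0.16, adjusted p = 0.909), were not called between genotypes at 4 °C. In the cold XTH26 was lower (-1.83 ± 0.26 in ozs3 and -0.81 ± 0.26 in Col-0), as was EXPA18 (-0.65 ± 0.16 in ozs3 and -0.92 ± 0.16 in Col-0). EXPA7 was not called in the cold (0.43 ± 0.18 in ozs3 and -0.10 ± 0.18 in Col-0), nor was PYK10 (-0.26 ± 0.17 and 0.38 ± 0.17). RCA was called lower in the cold in Col-0 (-0.62 ± 0.17, adjusted p = 0.00854) and not in ozs3 (-0.09 ± 0.17, adjusted p = 0.677). The part of these markers in the cold responses was not tested.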

How the data were processed

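The authors deposited log2 values of RMA, as named per the submitters' processing notes, with settings not given in the sources used here. This log2 scale was read from the values, which ran from 2.91 to 15.0 with array medians of 6.99 to 7.20. RMA pulls arrays to a shared distribution, which can hide a global shift. Arrays have no read depth, so the 12 arrays limit the precision. Of 22810 probe sets, 64 controls were left out. Probe sets were named by the platform table (13513 with 1 gene, 503 with several, 8730 with none); the TAIR10.1 gene table served for names and gene order, and promoter and protein sequences were not used here.

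Means of the 4 groups were estimated jointly with limma 3.58.1 (R 4.3.3), with 8 residual and 5.42 prior degrees of freedom and Benjamini-Hochberg adjustment over 22746 probe sets. It was tested on simulated data. The members and lists were chosen with earlier results of these data known. Named genes are the 4 members, the 5 nearest profiles of each, 2 genes on each side, called flavonoid genes (up to 6 per list) and the 3 largest rises and falls among other UDP-glycosyltransferases; the text gives a part of these falls, and 10 named flavonoid genes in all. Of these UDP-glycosyltransferases, 3 are also on the flavonoid lists.

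The titles number replicates 1 to 3 in every group. After subtraction of group means, arrays with 1 number correlated above 0.1 in every pair for ozs3 against Col-0 at 4 °C (0.198 to 0.353) and at 23 °C (0.294 to 0.473) and for the cold response in Col-0 (0.195 to 0.273), but not in ozs3 (0.0809 to 0.320). The pairing comes from the data. The block is an alternative.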

Additional observations from a re-analysis of the deposited data

Results flagged for a closer look

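The cold response of UGT78D1 was smaller in ozs3 than in Col-0 by -0.48 (limma adjusted p = 0.0333 for the interaction). The 4 genes were picked on their cold responses, so this p is not independent of the choice, and the call ended in 8 of 12 fits with 1 array left out. UGT78D1 averaged 4.39 in ozs3 at 4 °C and 4.24 in ozs3 at 23 °C, against 5.01 in Col-0 at 4 °C and 4.39 in Col-0 at 23 °C.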

How the results depend on the processing

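Over all alternatives, 382 of 391 values of the 4 genes kept their call or, for cold responses, moved by less than the spread between replicates. The other 9 all concerned UGT78D1: its interaction call without single arrays (8 values, given above) and its cold response in ozs3 with 1 common median for all arrays, 0.27 against 0.14 (0.02 with a repeated quantile normalization, which took the interaction to -0.61); the common median moved the median of all probe sets in ozs3 to 0.18, against 0.05. Many of the 391 values could not change. A cold difference is not altered by the replicate block or by leaving out an array of the other genotype. A genotype difference that stayed uncalled counted as kept even where its sign changed, as for AT2G16890 at 23 °C (-0.36 to 0.39). The count is therefore no measure of robustness. UGT78D1 has no value with only probe sets above a mean of 5, which leaves it out. The number of probe sets called for ozs3 against Col-0 at 23 °C was 1442, against 2253 with the replicate block and 2323 with array weights, and between 767 and 1551 with 1 array left out; it was over 1.5 times lower without Col-0 replicate 2 or 3 (919 and 954) or ozs3 replicate 1 or 2 (783 and 767) at 23 °C. For the interaction it was 2300, and between 1439 and 2279 with 1 array left out, lowest without ozs3 replicate 1 or 2 at 23 °C (1439 and 1457). With 1 common median, 60.7% of the calls at 4 °C were higher in ozs3 against 43.9%, 64.0% of those of the interaction against 42.5%, and 66.1% of those for cold in ozs3 against 48.8%. The replicate block changed no call of the 4 genes (UGT78D1 at 4 °C, adjusted p = 0.000644 with the block; interaction, 0.0286). With Pearson r as the measure of likeness, 3, 0, 0 and 2 of the 5 nearest genes were shared for UGT78D1, UGT78D2, AT2G22590 and AT2G16890. The cause of these shifts was not tested.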
